A study of Mus musculus with 6 samples.

Results

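Collagens and the matrix proteins of fibroblasts were followed through 6 mouse RNA sequencing libraries. The genes were all symbols formed as Col, a number, a and a number, which gave 44 collagen genes, and 15 others: Fn1, Lum, Dcn, Postn, Acta2, Tagln, Thbs1, Ctgf, Cyr61, S100a4, S100a6, Thy1, Sparc, Fbn1 and Lox. All 59 were found among the 23889 genes of the deposited tables. Levels are given as FPKM (fragments scaled to transcript length and library depth) or as TPM, the same values rescaled so that every library has the same total.

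The series was designed to find how transcription in AG-haESCs, haploid embryonic stem cells of androgenetic origin, differs from that in other cells. AG-haESCs came from embryos made by injecting a sperm head into an enucleated oocyte, in an F1 hybrid of C57BL/6 and DBA/2. They were derived and grown on feeders in KSR medium, a serum replacement, with the MEK and GSK3 inhibitors known as 2i, and were stained with Hoechst and flow sorted as haploid cells in G0/G1. The group has 3 libraries, 1 for each of the lines A129-2, AOS-14 and AOS-16. The round sperm group has 1 library, of the same hybrid strain, whose label carries the same culture and sorting text as the lines. The ESC XX group has 2 libraries of embryonic stem cells on an Oct-GFP (C57) background, grown in serum, LIF and 2i and collected after feeders had been taken away; their labels name no sort. Nothing in the labels says that the ESC XX libraries are separate cultures, so the spread between them may be technical. Thus strain, medium, the sort and the step against feeders all change together with the AG-haESC and ESC XX groups and cannot be told apart.

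Collagens are secreted chains that wind around each other into rods outside the cell. Fibrillar collagens such as types I, III and V bundle into the fibers of connective tissue, type IV builds the sheet of the basement membrane, and FACIT collagens (fibril-associated collagens with interrupted helices) decorate the fibers. Fibroblasts, the cells used as feeder layers for embryonic stem cells, make large amounts of type I collagen and its partners, whereas the endoderm of the early embryo is known for type IV collagen and Sparc.

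Estimated depth ran from 8.3 M to 17.7 M (mega) fragments per library, and 11406 to 12515 genes reached 1 FPKM. At these depths 1 FPKM of a 2-kb transcript corresponds to between 16.6 and 35.4 fragments, so values under 1 FPKM rest on few fragments. Short genes, under 200 nt, took 12.7% of all FPKM in AOS-14 and 6.26% in round sperm, against at most 0.111% elsewhere. The 5 pluripotency markers measured summed to between 2765 and 3374 TPM in the lines and to 2909 and 2865 TPM in ESC XX, against 19.5 TPM in round sperm. The 5 spermatid markers summed to 29116 TPM in round sperm and to at most 2.46 TPM in any other library.

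The 59 genes took up very different shares of the libraries. They summed to 1049, 1154 and 1486 TPM in the lines A129-2, AOS-14 and AOS-16 (1230 ± 228, mean ± SD, n = 3). The sum was 260.8 TPM in round sperm and 6798 and 6860 TPM in the ESC XX libraries. Thus the ESC XX mean was 5.55 times the AG-haESC mean, and every line lay below both ESC XX libraries and above round sperm. The 15 non-collagen genes carried most of the sum in the stem cells, with 869, 870 and 1000 TPM in the lines and 4893 and 4965 TPM in ESC XX, but only 21.1 TPM in round sperm. The 44 collagens summed to 180, 284 and 486 TPM in A129-2, AOS-14 and AOS-16, to 240 TPM in round sperm and to 1905 and 1896 TPM in ESC XX. For collagens alone round sperm therefore lay within the range of the lines in TPM. In FPKM as deposited it lay above every line, with 297 against 91.8, 201 and 266. In bulk libraries such as these, fewer cells of a type and less RNA per cell cannot be told apart.

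**Figure D1:**
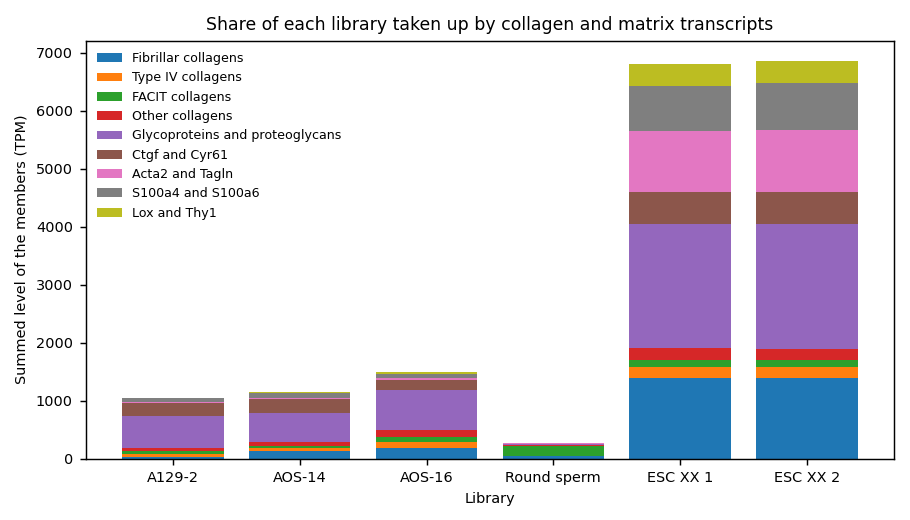
Stacked bars give the summed level (TPM, linear axis from 0) of the 59 genes in each library, split by class. The AG-haESC lines reach 1049 to 1486 TPM and the ESC XX libraries 6798 and 6860, and in round sperm, at 260.8, FACIT collagens make up the largest block.

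Different genes led the sum in each cell type. Sparc, a collagen-binding glycoprotein, supplied 23.8% to 28.9% of it in the lines, and Fn1, the fibronectin that links cells to matrix, 15.9% to 23.3%. In round sperm the FACIT gene Col22a1 alone supplied 37.1%, followed by Col16a1 with 14.3% and Col2a1, the fibrillar collagen of cartilage, with 13.7%. By mean FPKM, 22 collagens and none of the 15 other genes were highest in round sperm, 21 collagens and all 15 others were highest in ESC XX, and only Col9a2 was highest in AG-haESCs. In TPM the numbers were 20, 23 and 1 collagens, again with all 15 others highest in ESC XX. The collagens thus did not share 1 highest group. Some of them, such as Col4a4 and Col24a1, were highest in round sperm yet under 1 FPKM in every library. Shares of all genes by highest group were not taken, so these counts have no background beside them.

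Of the 59 genes, 31 reached 10 FPKM in some library, 20 peaked between 1 and 10 FPKM, and 8 stayed under 1 FPKM in all 6 libraries. The 8 low genes were Col4a4, Col4a6, Col6a6, Col8a2, Col10a1, Col13a1, Col24a1 and Col25a1. The number at or above 10 FPKM was 9 in A129-2, 11 in AOS-14, 13 in AOS-16, 4 in round sperm and 26 in each ESC XX library.

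**Figure D2:**
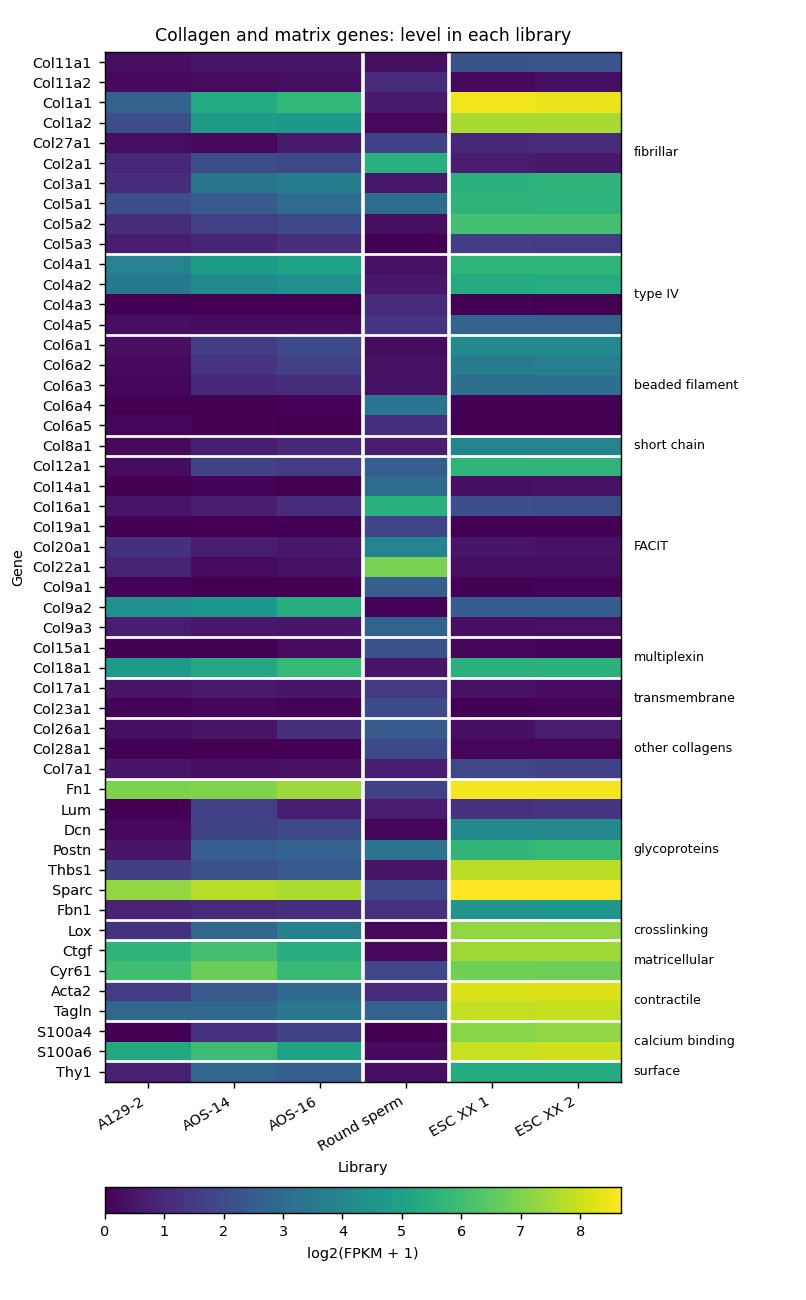
Heat map of log2(FPKM + 1) for the 51 genes that reached 1 FPKM in at least 1 library, grouped by class, with 1 column per library. The picture has 2 blocks: most FACIT collagens, with others such as Col2a1, bright in the round sperm column, and type I, III, V and VI collagens with the non-collagen genes bright in both ESC XX columns.

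Type I collagen, the main collagen of skin, bone and cultured fibroblasts, is built from the products of Col1a1 and Col1a2. Col1a1 stood at 5.68, 39.9 and 52.1 FPKM in the lines A129-2, AOS-14 and AOS-16, 0.55 in round sperm, and 357 and 346 FPKM in ESC XX. Col1a2 stood at 3.19, 25.3 and 24.0 FPKM in the same lines, 0.148 in round sperm, and 184 and 186 in ESC XX. Both genes were thus highest in ESC XX and lowest in round sperm, with A129-2 several times below the other lines. The chains kept to each other: the ratio of Col1a1 to Col1a2 in FPKM lay between 1.57 and 2.17 in the 5 stem cell libraries, although Col1a1 itself ran from 5.68 to 357 FPKM.

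The other fiber-forming collagens followed that order in the stem cells. Col3a1, the type III chain that accompanies type I in soft tissue, was at 1.20, 9.35 and 11.6 FPKM in A129-2, AOS-14 and AOS-16, 0.479 in round sperm and 45.1 and 48.5 FPKM in ESC XX. Col5a1 and Col5a2 encode type V chains, which set fiber diameter. Col5a1 was at 3.12, 4.53 and 7.14 FPKM in the lines, 7.37 in round sperm and 48.6 and 47.7 in ESC XX. In TPM, however, round sperm, at 5.943, lay below all the lines, at 6.13, 6.405 and 13.06. Col5a2 was at 1.15, 2.16 and 2.66 FPKM in the lines, 0.257 in round sperm and 66.3 and 67.6 in ESC XX. Here the chains did not keep to each other: Col5a1 was 2.10 to 2.71 times Col5a2 in the lines but 0.733 and 0.705 times Col5a2 in ESC XX. Col2a1 went the other way, with 44.3 FPKM in round sperm against 0.970, 3.23 and 2.72 in the lines and 0.586 and 0.517 in ESC XX. Col5a3, Col11a1, Col11a2 and Col27a1 peaked between 1.04 and 3.87 FPKM.

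Type VI collagen forms beaded filaments around cells, and its chains Col6a1 and Col6a2 kept a ratio between 1.32 and 1.87 in the 5 stem cell libraries. Col6a1 was at 0.287, 2.01 and 2.78 FPKM in A129-2, AOS-14 and AOS-16, 0.194 in round sperm and 17.0 and 16.5 in ESC XX. Col6a2 was at 0.154, 1.46 and 2.11 FPKM in the lines, 0.312 in round sperm and 12.0 and 12.1 in ESC XX. Col6a3 peaked at 8.24 FPKM in ESC XX, whereas Col6a4 and Col6a5 peaked in round sperm at 9.27 and 1.28 FPKM. Col8a1, a short-chain collagen of vessel walls and corneal membranes, reached 14.3 and 13.7 FPKM in ESC XX, against 0.155, 0.658 and 0.949 in the lines and 0.635 in round sperm.

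The basement membrane collagens Col4a1, Col4a2 and Col18a1 were well expressed in the haploid lines and in ESC XX. Col4a1 was at 13.5, 26.0 and 31.4 FPKM in A129-2, AOS-14 and AOS-16, 0.357 in round sperm, and 50.6 in both ESC XX libraries. Col4a2, whose product joins that of Col4a1 in the same molecule, was at 10.5, 17.0 and 20.1 FPKM in the lines, 0.486 in round sperm and 39.9 and 40.6 in ESC XX. The ratio of Col4a1 to Col4a2 lay between 1.25 and 1.57 in the 5 stem cell libraries. These genes lie head to head on chromosome 8, on opposite strands, and their RefSeq start sites in GRCm38.p6 are 21 bases apart. The use of strand in counting is not given in the sources used here. Col4a5 reached 5.86 FPKM in ESC XX and 1.53 in round sperm but at most 0.294 in the lines, and Col4a3 peaked in round sperm at 1.06 FPKM. Col18a1, a basement membrane multiplexin from which endostatin is cut, was at 25.3, 37.1 and 55.4 FPKM in the lines, 0.435 in round sperm and 45.9 and 46.4 in ESC XX. For Col18a1 the lines and ESC XX overlapped.

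Among FACIT genes 1 stood high in the haploid lines. Col9a2, which encodes a type IX chain of cartilage, was at 19.3, 23.5 and 41.5 FPKM in A129-2, AOS-14 and AOS-16, 0.0721 in round sperm and 4.74 and 4.83 in ESC XX. Its partner chains were elsewhere: Col9a1 and Col9a3 peaked in round sperm at 5.19 and 5.93 FPKM and stayed under 1 FPKM in every stem cell library. Col22a1, a collagen known from the muscle-tendon junction, reached 119.9 FPKM in round sperm, against 0.826, 0.179 and 0.315 in the lines and 0.244 and 0.239 in ESC XX. Col16a1 reached 46.2 FPKM in round sperm, against 0.391, 0.575 and 1.15 in the lines and 3.31 and 3.21 in ESC XX. Col20a1 was at 13.9 FPKM in round sperm, 1.28, 0.633 and 0.490 in the lines and 0.453 and 0.329 in ESC XX. Col12a1, a FACIT chain of tendon and fibroblast matrix, was at 0.218, 2.25 and 1.89 FPKM in the lines, 5.01 in round sperm and 50.01 and 50.33 in ESC XX. Thus Col12a1, like type I collagen, was far higher in ESC XX than in any line. Col14a1 and Col19a1 peaked in round sperm at 7.28 and 2.51 FPKM. Outside the FACIT class, Col15a1, Col17a1, Col23a1, Col26a1 and Col28a1 peaked in round sperm between 1.79 and 4.65 FPKM, and Col7a1 peaked in ESC XX at 2.58 FPKM.

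Sparc and Fn1 were the most abundant of the 59 genes in the haploid lines. Sparc was at 154, 214 and 194 FPKM in A129-2, AOS-14 and AOS-16, 2.56 in round sperm and 409 and 407 in ESC XX. Fn1 was at 125, 130 and 170.0 FPKM in the lines, 2.203 in round sperm and 366 and 365 in ESC XX. Ctgf and Cyr61 encode secreted regulators of the CCN family that are textbook targets of the YAP and TEAD pathway. Ctgf was at 49.0, 67.9 and 41.5 FPKM in the lines, 0.167 in round sperm and 172 and 175 in ESC XX. Cyr61 was at 63.1, 105 and 58.1 FPKM in the lines, 2.56 in round sperm and 113 and 109 in ESC XX. Cyr61 exceeded Ctgf in every line, with a Ctgf to Cyr61 ratio of 0.645 to 0.776 in FPKM, whereas Ctgf exceeded Cyr61 in both ESC XX libraries, with 1.52 and 1.60.

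The contractile and fibroblast markers were the genes most restricted to ESC XX. Acta2, the smooth muscle actin of myofibroblasts, was at 1.82, 4.33 and 6.91 FPKM in A129-2, AOS-14 and AOS-16, 1.16 in round sperm and 297 and 299 in ESC XX. Tagln, the actin-binding transgelin, was at 6.34, 6.46 and 9.81 FPKM in the lines, 5.70 in round sperm and 235 and 240.1 in ESC XX. Thbs1, the adhesive glycoprotein thrombospondin, was at 2.02, 3.46 and 4.48 FPKM in the lines, 0.360 in round sperm and 218 in both ESC XX libraries. For Acta2, Tagln and Thbs1 all 4 other libraries lay under 10 FPKM, far below ESC XX. S100a4, a calcium-binding protein also called fibroblast-specific protein, was listed at 0 in A129-2 and in round sperm, at 1.37 and 2.30 FPKM in AOS-14 and AOS-16, and at 140.0 and 151 in ESC XX. Its relative S100a6 was by contrast well expressed in the lines, with 37.9, 60.4 and 31.7 FPKM, against 0.178 in round sperm and 248 and 264 in ESC XX. A listed 0 may also be an estimate that failed.

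Lox, the lysyl oxidase that crosslinks collagen, was at 1.40, 6.27 and 12.6 FPKM in A129-2, AOS-14 and AOS-16, 0.150 in round sperm and 155 in both ESC XX libraries. Thy1, a surface antigen of fibroblasts and lymphoid cells, was at 0.699, 6.33 and 5.22 FPKM in the lines, 0.239 in round sperm and 39.1 and 39.5 in ESC XX. Postn, the adhesion protein periostin, was at 0.444, 5.01 and 5.58 FPKM in the lines, 8.83 in round sperm and 51.9 and 57.5 in ESC XX. For Postn round sperm lay above all the lines in FPKM, but in TPM, at 7.13, it lay below AOS-16 at 10.21. Dcn, the small proteoglycan decorin, was at 0.135, 2.19 and 2.73 FPKM in the lines, 0.115 in round sperm and 15.82 and 16.02 in ESC XX. Fbn1, the microfibril protein fibrillin, was at 0.832, 1.06 and 1.28 FPKM in the lines, 1.37 in round sperm and 22.2 and 22.7 in ESC XX. In TPM, however, round sperm, at 1.106, lay below all the lines, at 1.633, 1.501 and 2.344. Lum, the proteoglycan lumican, was low throughout, listed at 0 in A129-2 and peaking at 2.10 FPKM in AOS-14.

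Upstream windows of RefSeq, in the build GRCm38.p6, were found for 42 of the 59 genes, which had 46 windows in all. The 250 bases before the start site are shown for 4 genes that stand for the patterns above: Acta2, the gene of those shown with the widest gap to ESC XX, Cyr61, with the narrowest, and Col3a1 and Col1a2, which moved together across the lines. The windows are chr19:34255374-34255623 on the minus strand for Acta2, chr3:145649986-145650235 on the minus strand for Cyr61 (listed as Ccn1), chr1:45311288-45311537 on the plus strand for Col3a1 and chr6:4505368-4505617 on the plus strand for Col1a2. Capitals mark the letters GGAATG or, on the other strand, CATTCC (the core bound by TEAD factors), then TATAAA, the letters of a TATA box, and the box CCAAT.
Acta2: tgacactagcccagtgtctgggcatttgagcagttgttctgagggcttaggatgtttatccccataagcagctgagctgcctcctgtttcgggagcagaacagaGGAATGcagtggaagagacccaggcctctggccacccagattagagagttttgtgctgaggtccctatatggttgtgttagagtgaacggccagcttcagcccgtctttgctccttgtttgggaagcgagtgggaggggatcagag
Cyr61: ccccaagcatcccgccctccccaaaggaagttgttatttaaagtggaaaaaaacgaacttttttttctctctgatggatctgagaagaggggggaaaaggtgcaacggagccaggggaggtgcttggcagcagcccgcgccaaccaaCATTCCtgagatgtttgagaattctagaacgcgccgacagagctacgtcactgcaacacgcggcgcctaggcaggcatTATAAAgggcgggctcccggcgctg
Col3a1: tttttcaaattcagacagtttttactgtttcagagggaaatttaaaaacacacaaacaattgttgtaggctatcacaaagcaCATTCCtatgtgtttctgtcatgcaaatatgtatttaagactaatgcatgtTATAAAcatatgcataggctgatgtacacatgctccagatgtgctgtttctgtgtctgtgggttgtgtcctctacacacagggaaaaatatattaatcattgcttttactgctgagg
Col1a2: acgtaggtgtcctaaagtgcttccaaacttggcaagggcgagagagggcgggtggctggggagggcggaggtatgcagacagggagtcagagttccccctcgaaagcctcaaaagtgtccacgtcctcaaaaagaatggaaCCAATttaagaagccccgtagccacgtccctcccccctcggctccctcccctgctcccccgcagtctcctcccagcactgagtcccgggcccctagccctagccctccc

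The TEAD letters began 146 bases before the start of Acta2, 103 bases before that of Cyr61 and 168 bases before that of Col3a1, each counted from the end farther from the gene. Cyr61 also held TATAAA, beginning 25 bases before its start, the usual place of a TATA box. In Col3a1 the TATAAA letters began 117 bases before the start, and in Col1a2 the box CCAAT began 109 bases before it. Searched on both strands, the TEAD letters stood in 6 of the 46 windows (of Acta2, Cyr61, Col3a1, Col6a2, Col18a1 and Col20a1), against 12.6% of the 32851 windows of all genes. CCAAT stood in 14 of the 46 windows against 33.8% of all, and TATAAA in 8 against 12.4%. The CArG box, the element of serum response factor, was searched only in its strict form: CC, then 6 letters A or T, then GG. That form matched only in the window of Col6a4, against 1.47% of all windows. The Acta2 window holds ccctatatgg and ccttgtttgg, each 1 letter off the strict form, and these were not counted. A CArG box can hold CCAAT or TATAAA within it, so matches to it and to them are not independent. All are matches of letters only.

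AG-haESCs were then compared with round sperm by limma on log2(FPKM + 1). Sparc, Fn1, Ctgf, Cyr61 and S100a6 were higher in the haploid lines, together with 4 collagens: Col4a1, Col4a2, Col18a1 and Col9a2. The 17 genes that were lower were all collagens, led by Col22a1, Col16a1 and Col2a1. Thus of the 33 collagens tested 4 were called higher and 17 lower, and of the 15 other genes 5 were called higher and none lower. Most of the 17, such as Col22a1, Col14a1 and Col19a1, were under 1 FPKM in every line. They were tested only because round sperm reached 1 FPKM, so they could not have been called higher. The filter acts on all genes in this way. A call required an adjusted p under 0.05 (Benjamini-Hochberg over 15938 genes, two-sided) and a log2 difference of at least 1. Of all genes tested, 22.8% were called higher and 39.1% lower, so the members' 9 higher and 17 lower calls of 48 tested were shares close to the background. In the 48 the median log2 difference was 0.22 against -0.49 over all genes, and it was -1.03 for collagens and 1.62 for the other 15. The remaining 11 members were under 1 FPKM in all 4 libraries and were not tested. Round sperm has a single library, which is assumed to vary as the lines do, so that the spread rests on the 3 lines (2 residual degrees of freedom).

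**Figure D3:**
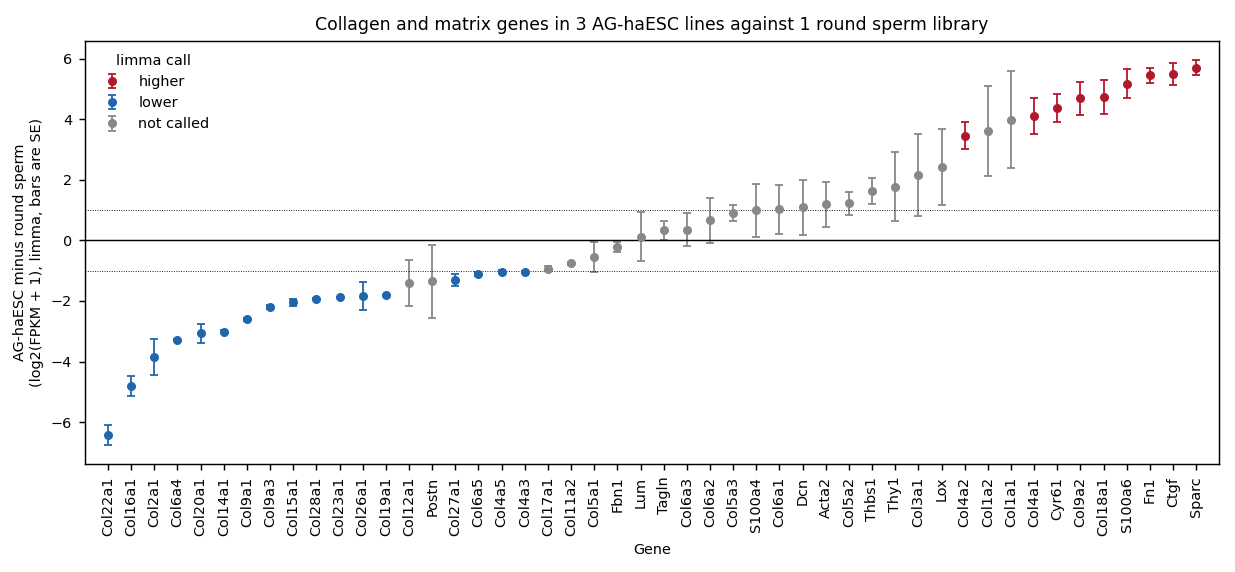
Points give the limma difference of 3 AG-haESC lines minus 1 round sperm library in log2(FPKM + 1), with SE bars, for the 48 genes tested, and dotted lines mark a difference of 1 either way. Col1a1 and Col1a2 have differences of 3.98 and 3.61 but wide bars and no call, while Sparc, at 5.71, has a narrow one.

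Sparc was higher by 5.71 ± 0.25 (log2 difference ± SE, adjusted p = 0.00156 by limma), and Fn1 by 5.46 ± 0.25 (adjusted p = 0.00175). Ctgf followed with 5.50 ± 0.36 (adjusted p = 0.00338), S100a6 with 5.18 ± 0.47 and Cyr61 with 4.37 ± 0.46. Among collagens Col18a1 differed by 4.74 ± 0.55 (adjusted p = 0.0102), Col9a2 by 4.69 ± 0.55, Col4a1 by 4.10 ± 0.60 and Col4a2 by 3.46 ± 0.45. Each of these 9 genes was higher in 3 of 3 lines. Without AOS-14 the 4 collagens lost their calls, with adjusted p of 0.0654 for Col18a1, 0.0625 for Col9a2, 0.0844 for Col4a1 and 0.0738 for Col4a2, and Col4a1 also did without AOS-16 (0.0575).

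Col22a1 was lower in the lines by -6.42 ± 0.33 (log2 difference ± SE, adjusted p = 0.00218 by limma), Col16a1 by -4.81 ± 0.33 (adjusted p = 0.00363) and Col2a1 by -3.85 ± 0.59 (adjusted p = 0.018). Col6a4 (-3.30), Col20a1 (-3.07), Col14a1 (-3.01), Col9a1 (-2.60), Col9a3 (-2.21) and Col15a1 (-2.04) were lower too. The other 8 lower collagens were Col28a1, Col23a1, Col26a1, Col19a1, Col27a1, Col6a5, Col4a5 and Col4a3, with differences between -1.93 and -1.03. By class, 7 of 9 FACIT genes were lower, also when libraries were rescaled to the same total, and 1, Col9a2, was higher. Of 9 fibrillar genes tested 2 were lower and none higher. Over all genes tested 39.1% were lower and 22.8% higher. Of the 7 FACIT genes, Col9a1, Col9a3, Col14a1, Col19a1 and Col22a1 were under 1 FPKM in every line, so they could not have been called higher. Rescaled to the same total, the median of all genes moved from -0.49 to 0.40, and the share of calls that were higher moved from 36.8% to 52.1%. The members then had 11 higher and 12 lower calls, beside 4867 higher and 4481 lower calls over all 15938 genes. The calls lost by that rescaling were Col4a3, Col4a5, Col6a5, Col26a1 and Col27a1. The call of Col2a1 went when AOS-14 was left out (adjusted p = 0.0634 by limma) and when AOS-16 was (0.0715), that of Col20a1 when AOS-14 was, and those of Col26a1 and Col27a1 when A129-2 or AOS-14 was.

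Type I collagen had large differences from round sperm that did not pass the test. Col1a1 differed by 3.98 ± 1.60 (log2 difference ± SE, adjusted p = 0.125 by limma), Col1a2 by 3.61 ± 1.49 (0.13), Lox by 2.43 ± 1.25 (0.19) and Col3a1 by 2.16 ± 1.36 (0.258), although all were higher in 3 of 3 lines. In each of these genes A129-2 was the lowest line. Without A129-2, on 2 lines, Col1a1 (4.91, adjusted p = 0.0156), Col1a2 (4.48, 0.00678), Col3a1 (2.95, 0.0198), Col5a2, Col6a1, Dcn, Thbs1 and Thy1 were called higher. With A129-2 left out, 17 of 48 members were higher, beside 3469 of all 15756 genes tested. With AOS-14 left out, 5 of 47 members were, beside 2449 of all 15684 genes. Rescaling to the same total also brought in Col5a2 and Thbs1.

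Against ESC XX most of the matrix genes were lower in the haploid lines. The largest gaps were in S100a4, Acta2, Thbs1, Tagln, Col12a1, Lox and Col5a2. The libraries of these groups come from tables normalized apart, so no test was run between them. A gene was counted when the group means of log2(TPM + 1), with the median of all genes removed, differed by at least 1 and no line overlapped an ESC XX library. By this rule 29 of the 42 members compared were lower (16 collagens and 13 others) and 2 collagens were higher. Among the 16, Col4a5, Col7a1 and Col11a1 were under 1 TPM in every line. They were compared only because ESC XX reached 1 TPM, so they could not have come out higher. This filter too acts on all genes alike. Over all 14251 genes 7.82% were lower and 6.93% higher by the same rule. The median difference of the 42 members was -2.47, against 0 by construction over all genes. Of the 59 genes, 17 did not reach 1 TPM in any of these 5 libraries and were not compared.

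**Figure D4:**
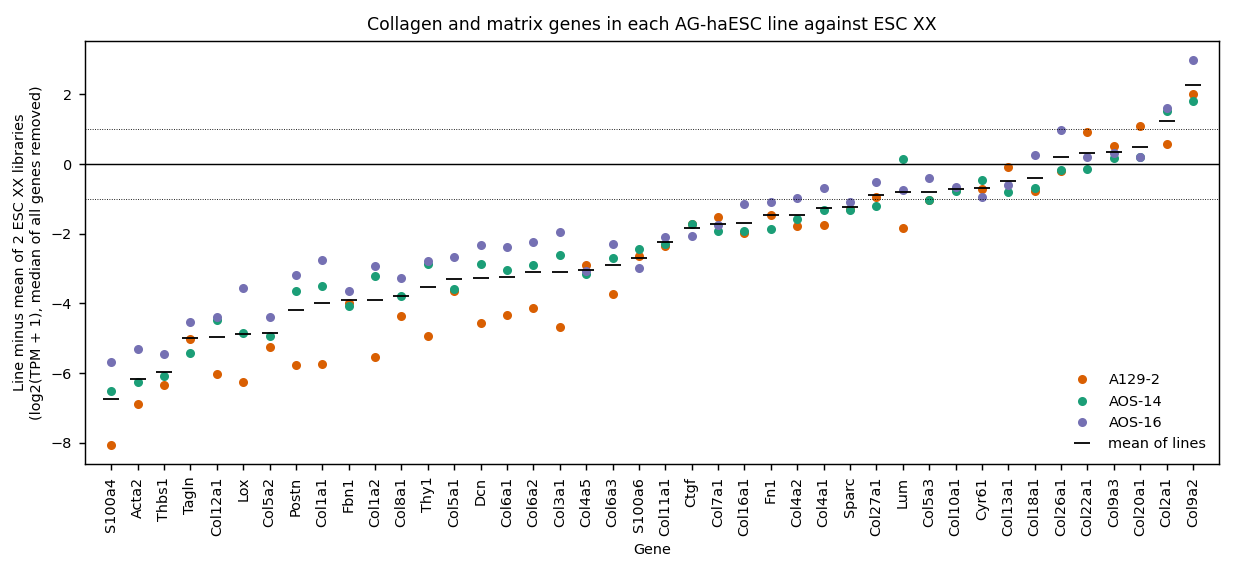
Each point is a line minus the mean of 2 ESC XX libraries in log2(TPM + 1), with the median over all genes removed, for the 42 genes compared; bars are means of the 3 lines, and dotted lines mark a difference of 1 either way. Genes run from S100a4, at a mean of -6.75, to Col9a2, at 2.27, and the A129-2 point hangs below the others in type I, III and VI collagens.

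Acta2 in the lines reached 1.27% of its ESC XX level in TPM, a log2 difference of -6.16 ± 0.79 (mean ± SD of 3 lines). Thbs1 reached 1.32% (-5.96 ± 0.46), Tagln 2.82% (-4.99 ± 0.45) and Lox 3.78% (-4.89 ± 1.35). S100a4 differed by -6.75, with lines from -8.06 to -5.69. Col12a1 reached 2.38% of its ESC XX level (-4.96 ± 0.92) and Col5a2 2.57% (-4.86 ± 0.43). Col1a1 and Col1a2 reached 7.84% and 7.88%, with wide spread between lines (-3.99 ± 1.55 and -3.89 ± 1.44). Postn (-4.19), Fbn1 (-3.91), Col8a1 (-3.80), Thy1 (-3.54), Col5a1 (-3.30), Dcn (-3.26), Col6a1 (-3.25), Col3a1 (-3.09) and Col6a2 (-3.09) also lay below both ESC XX libraries in 3 of 3 lines.

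A smaller gap separated the groups in the glycoproteins and basement membrane chains that the lines expressed well. Sparc reached 39.8% of its ESC XX level in TPM (-1.23 ± 0.13), Fn1 34.2% (-1.47 ± 0.38), Col4a2 34.2% (-1.45 ± 0.42), Col4a1 40.4% (-1.25 ± 0.55) and Ctgf 26.2% (-1.83 ± 0.19). S100a6 reached 14.4% (-2.69 ± 0.28). Col4a1 no longer passed the rule without A129-2. Cyr61, at 57.8% (-0.70 ± 0.24), and Col18a1, at 74.6% (-0.39 ± 0.56), fell under the size that the rule asks for. Col9a2 was 5.20 times higher in the lines (2.27 ± 0.63), and Col2a1 3.51 times (1.24 ± 0.57). Col2a1 is a low gene here, and it no longer passed with FPKM as deposited or with a pseudocount of 5. By class the ESC XX to AG-haESC ratio of summed TPM was 51.1 for the contractile pair Acta2 and Tagln, 12.2 for fibrillar collagens, 11.4 for type VI, 3.67 for glycoproteins and small proteoglycans, 2.82 for type IV, 2.10 for FACIT collagens and 1.34 for the multiplexins. The FACIT ratio turns on Col12a1, which held 98.8 of the 117.2 TPM of that class in ESC XX, and the median difference of the 6 FACIT genes compared was 0.34.

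Markers of fibroblasts other than the 59 genes were also lower in the lines than in ESC XX. The 20 markers on that list summed to 407, 173 and 306 TPM in A129-2, AOS-14 and AOS-16, 65.4 TPM in round sperm and 1383 and 1369 TPM in ESC XX. Pcolce, Loxl1 and Mmp2, which are among the 20, also stand on the lists for collagen synthesis or degradation below. Of the 20, 8 to 11 reached 1 FPKM in the lines, 7 in round sperm and 17 in each ESC XX library, where none was listed at 0. Listed at 0 in A129-2 were 3 of them, Twist2, Fap and Dpt, in AOS-14 none and in AOS-16 only Meox2. By the rule above 14 of 19 were lower in AG-haESCs than in ESC XX and none higher. Over all genes 7.82% were lower and 6.93% higher. Only 13 of the markers reached 1 TPM in any line. The rest of the 19, some of them among the 14, were compared only through ESC XX and could not have come out higher. The intermediate filament Vim was at 132, 68.7 and 92.4 FPKM in the lines and 383 and 379 in ESC XX, and Fbln2, a fibulin, was at 1.31, 6.77 and 10.24 FPKM and at 130 in both ESC XX libraries. Without Vim the sums were 149, 76.1 and 137 TPM in the lines and 628 and 622 TPM in ESC XX. The part of other cells in the differences from ESC XX was not tested. Markers of testis peritubular cells and smooth muscle were lower for 6 of 6, Acta2 and Tagln among them, beside 7.82% of all genes. Of the 6, 5 reached 1 TPM in some line, and the other could not have come out higher. Without Acta2 and Tagln these markers summed to 12.91 to 15.98 TPM in the lines against 116 and 115 TPM in ESC XX.

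Primitive and parietal endoderm is another lineage known for Sparc, Col4a1 and Col4a2. The 9 markers of it that are not among the 59 genes summed to 27.2, 28.4 and 45.5 TPM in A129-2, AOS-14 and AOS-16, 22.4 TPM in round sperm and 61.0 and 59.4 TPM in ESC XX. All 9 are named here. The factors Gata4, Gata6, Sox7, Sox17 and Foxa2 each stood at or below 4.54 FPKM in all 5 stem cell libraries. Of these, Gata6 was at 0.470, 4.54 and 3.13 FPKM in A129-2, AOS-14 and AOS-16. Others stood higher: Lamb1 reached 13.8 FPKM in AOS-16 and 16.4 in ESC XX, Lama1 7.82 in ESC XX and Dab2 5.56 in A129-2. Pth1r peaked at 1.12 FPKM in A129-2. The part of endoderm cells in the levels of Sparc and type IV collagen was not tested. Markers of somatic testis cells were low in round sperm, where 5 Sertoli markers summed to 5.71 TPM and 5 Leydig markers to 3.04 TPM, against 10.7 to 19.6 and 5.53 to 9.23 TPM in the lines. The 6 markers of blood and endothelium summed to 7.09 TPM in round sperm, 74.4 to 108.8 TPM in the lines and 92.7 TPM in both ESC XX libraries. In the stem cells most of that sum was the single gene Pecam1. It was at 46.7, 37.8 and 38.8 FPKM in A129-2, AOS-14 and AOS-16, 0.512 in round sperm and 30.4 and 30.2 in ESC XX. The part of all these cell types in the differences from round sperm was not tested.

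Among the 3 haploid lines, type I, III and VI collagens and several fibroblast genes were lowest in A129-2. Of 38 members compared, 21 differed at least 2-fold between the highest and the lowest line, against 30.5% of all 13569 genes. The lowest line was A129-2 for 25 of the 38 (65.8%) against 24% of all genes. In A129-2, 13 members were at least 2-fold under both other lines: Col1a1, Col1a2, Col3a1, Col6a1, Col6a2, Col6a3, Col12a1, Lum, Dcn, Postn, S100a4, Thy1 and Lox. Over all genes 2.31% did so. No member was at least 2-fold over both in A129-2, where 6.58% of all genes were. With 1 library per line these differences have no replicate check.

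**Figure D5:**
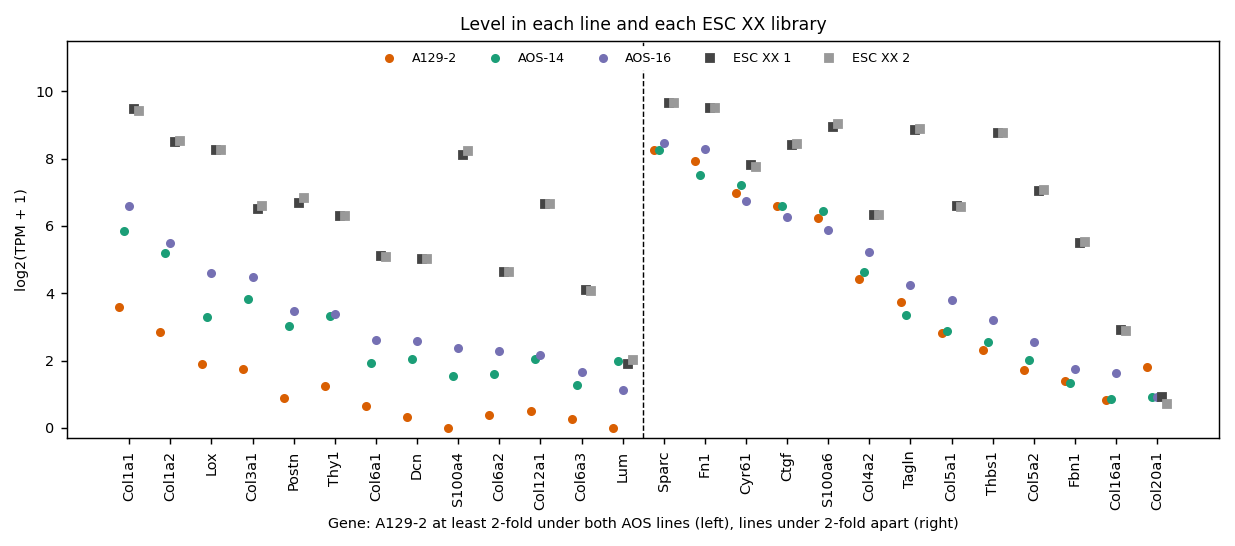
Level of single genes in log2(TPM + 1) in the 3 lines (circles) and the ESC XX libraries (squares). On the left are the 13 genes that were in A129-2 at least 2-fold under both AOS lines, from Col1a1 to Lum, and on the right genes whose lines lay under 2-fold apart, such as Sparc and Ctgf.

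Relative to A129-2, in TPM, Col1a1 was 5.06 times higher in AOS-14 and 8.56 times in AOS-16. Col1a2 was 5.72 and 7.01 times higher, Col3a1 5.63 and 9.06 times, Col6a1 5.03 and 9.03 times, and Thy1 6.52 and 6.95 times. For Postn the ratios were 8.13 and 11.7, for Lox 3.23 and 8.44 and for Dcn 11.7 and 18.9, the last from only 0.135 FPKM in A129-2. Sparc (0.998 and 1.17 times), Ctgf (0.998 and 0.789), Cyr61 (1.20 and 0.858), Fn1 (0.749 and 1.27) and S100a6 (1.15 and 0.780) by contrast differed little from line to line. Every gene of the first set was, in each line, also below both ESC XX libraries, except Lum. Chromosome 8 as a whole had a median excess of 0.93 (log2) in A129-2 over the AOS lines, taken over 445 genes and relative to other autosomes. Col4a1 and Col4a2, which lie on it, went the other way, with differences of -0.94 and -0.68 on the same scale.

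Of the fibroblast markers outside the 59 genes, 13 were compared between the lines, and A129-2 was the lowest for 8 (61.5%), against 65.8% of the members and 24% of all genes. Fbln2 was in A129-2 at least 2-fold under both other lines, and 1 marker was at least 2-fold over both. The latter was Pcolce, an enhancer of procollagen processing, which A129-2 had at 58.0 FPKM and AOS-14 and AOS-16 at 14.8 and 24.8, a gene singled out after its values were seen. Vim was also highest in A129-2. Their part in the differences between lines was not tested.

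Genes that make, hold, bind and cut collagen were followed beside the collagens themselves. Of the 27 measured genes for collagen synthesis and crosslinking, 23 were tested against round sperm, 11 were higher and 2 lower, with a median log2 difference of 1.93 against -0.49 over all genes. Of all genes tested 22.8% were higher and 39.1% lower. P4hb, a subunit of prolyl hydroxylase, was at 212, 224 and 633 FPKM in A129-2, AOS-14 and AOS-16, 13.4 in round sperm and 287 and 290 in ESC XX. The collagen galactosyltransferase Glt25d1 was at 78.7, 86.7 and 86.7 FPKM in the lines, 0.369 in round sperm and 66.0 and 62.3 in ESC XX. Against ESC XX 9 of 26 were lower and 1 higher, where 7.82% and 6.93% of all genes were, with a median of -0.79, a smaller gap than the -1.68 of the collagens. P4hb, P4ha1, Ppib and Glt25d1 were the 4 most abundant of the list or most different from round sperm. Their means over the lines were within 0.49 of ESC XX on the log2 scale. Single lines strayed farther, with an SD of the lines of 0.98 for P4hb, 0.80 for P4ha1, 0.60 for Ppib and 0.20 for Glt25d1. Farther down the list, and singled out after their values were seen, Loxl1 (-3.23) and Bmp1 (-3.16) were lower than in ESC XX.

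Among other basement membrane genes the laminin chain Lamc1 and the linkers Nid1 and Nid2 were higher in the lines than in round sperm. Of 15 tested against round sperm 9 were higher and 4 lower (median 2.39; all genes 22.8% and 39.1%). Against ESC XX 6 of 15 were lower and none higher (median -0.74; all genes 7.82% and 6.93%). Lamc1 was at 57.7, 82.9 and 71.9 FPKM in A129-2, AOS-14 and AOS-16, 0.296 in round sperm and 67.9 and 67.1 in ESC XX. Nid1 and Nid2 differed from ESC XX by -0.34 and 0.07. Other laminin chains were lower in the lines, as Col4a1 and Col4a2 were, such as Lama1 (-1.44) and Lama4 (-2.23), named after their values were seen.

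Of 15 receptors for collagen and matrix tested against round sperm 7 were higher and 3 lower (median 1.68), where 22.8% and 39.1% of all genes were. Against ESC XX 4 of 15 receptors were lower and 1 higher (median -0.63), where 7.82% and 6.93% of all genes were. The integrin subunit Itgb1 was at 151, 78.1 and 82.1 FPKM in the lines, 0.276 in round sperm and 150.0 and 152 in ESC XX. Of 9 tested genes for matrix degradation and its inhibitors 6 were higher and 1 lower than in round sperm (median 1.77), beside the same shares of all genes, 22.8% and 39.1%. Against ESC XX 7 of 11 were lower and none higher (median -2.28), beside 7.82% and 6.93%. The inhibitor Timp1 lay between 93.5 and 106 FPKM in the 5 stem cell libraries, against 0.402 in round sperm. On the TPM scale of the rule above, the lines differed from ESC XX by -0.22 ± 0.20 (mean ± SD of 3 lines).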

How the data were processed

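RNA of 6 libraries was sequenced: 3 AG-haESC lines and 1 round sperm library in a shared table, and 2 ESC XX libraries in tables of their own. Per the labels' protocols, the RNA was polyA selected and the kit was KAPA's stranded one. The submitters' processing notes list TopHat2 2.0.13, Cuffdiff 2.2.1 and mm9. Settings of these tools are not given in the sources used. FPKM is the unit that the ESC XX tables name for the deposited values, and for the shared table it was inferred from Cuffdiff's output and the size of the values. The files hold no counts, so depth was estimated from the steps of low FPKM values.

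AG-haESC and round sperm were compared on log2(FPKM + 1) with limma 3.58.1 (R 4.3.3, trended prior variance), for genes with at least 1 FPKM in at least 1 of the 4 libraries. The pseudocount of 1 understates the change of low genes. The p-values measure the spread between these lines. Levels across tables were compared in TPM, with no test. Data were also simulated for AG-haESC against round sperm, with 200 of 15938 genes changed. There 40% of genes changed by a log2 of 4 and 0% of those changed by 1 were called, with 0.0127% of unchanged genes. In the real data 22.8% of genes were called higher and 39.1% lower, which makes the adjustment less strict than in the simulation. The simulated shares thus do not tell how often the real test misses a change. A gene without a call is still not shown to be level.

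Members with 10 FPKM in any library have every value given. Of each other list at most 4 genes were named, the 2 most abundant and the 2 with the largest called difference, with exceptions marked; 1 gene named by this rule is not reported here. Members and lists were chosen with earlier results of these data known. Sequences are from RefSeq (GRCm38.p6), another build than mm9, so they describe the genes and not the deposited values. Alternatives covered the pseudocount, the filter, the scaling, the variance trend and leaving out each library.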

Additional observations from a re-analysis of the deposited data

How the results depend on the processing

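Across the alternatives no difference of a member with at least 10 FPKM changed direction while called. Against round sperm the number of members called lower fell from 17 to 7 with a pseudocount of 5. It fell to 9 with a filter on a mean of at least 1 FPKM. That filter tests 34 members and drops low genes that peak in round sperm. Over all genes the lower calls were 6232 of 15938 in the main fit. They were 5016 of 15938 with that pseudocount and 5508 of 14297 with that filter. Leaving out 1 line gave between 5 and 17 higher calls and between 13 and 16 lower calls. The lowest of these higher counts was without AOS-14 and the highest without A129-2. Over all genes, 15684 to 15757 tested, the same fits gave 2449 to 3469 higher calls and 5243 to 5941 lower calls. There too the fewest higher calls came without AOS-14 and the most without A129-2. Against ESC XX the number of higher members fell from 2 to 1 with a pseudocount of 5 and with FPKM as deposited, where Col2a1 dropped out, and the cause was not tested for the scaling. Leaving out 1 line moved the number of members at least 2-fold apart between lines from 21 to between 3 and 19, with 3 when A129-2 was left out, as the remaining lines are then closer. With FPKM as deposited the members summed to 720.8 in AG-haESCs, 323.2 in round sperm and 3467 in ESC XX, so the excess of ESC XX over AG-haESCs was 4.81 times. Without genes under 200 nt the round sperm sum was 278.3 TPM. For genes named with all values, 366 alternative values against ESC XX kept the verdict and 4 lost it, and against round sperm 305 kept it, 16 gained a call and 8 lost one.

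No paired analysis was possible because the numbers of the lines are names only and the round sperm group has a single library. Depth limits what can be said below 1 FPKM, where a value rests on fewer than 35.4 fragments for a 2-kb transcript. Comparisons between lines and with ESC XX carry no test, and the round sperm group has no replicate.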
